A study of Arabidopsis thaliana with 9 samples.

Results

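The 10 genes described here encode pattern recognition receptors of the Arabidopsis thaliana leaf and the proteins they signal through. They are the receptors FLS2, EFR, CERK1 and LYK5, the partner kinases BAK1, BKK1 and SOBIR1, the signalling proteins BIK1 and RBOHD, and the output gene FRK1. They were taken by gene identifier from the 33302 features of the deposited expression table, and all 10 were found there. RNA was sequenced from leaves of plants aged 21 days in the Columbia-0 background, giving 4 libraries. Both groups had a histone H3 gene (AT4G40040) inserted beside their own H3 genes. The inserted copy was unmutated in the 2 libraries named WT here and had lysine 36 replaced by methionine in the 2 named K36M. WT therefore means a transgenic control, not plain Columbia-0. The labels of the RNA samples do not say whether the K36M insertion was heterozygous or homozygous, which promoter drove it, or how many plants or lines went into a library. The series also lists H3K36me3 chromatin samples, which were not analysed here.

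Pattern recognition receptors sit in the plasma membrane and bind molecules that microbes share, such as flagellin, the elongation factor EF-Tu and chitin, or fragments released by wounded plant cells. On binding, a receptor joins a co-receptor kinase, and the pair passes phosphate to cytoplasmic kinases, which start an oxidant burst, calcium influx and MAP kinase cascades. Leaves keep many of these genes transcribed without infection, and several of the receptor genes are themselves induced by immune signalling. The comparison asks whether their transcripts differ with the mutation of the inserted histone, whose methylation at lysine 36 accompanies transcription.

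Expression is given as FPKM, a fragment count corrected for gene length and library size, and levels of different genes are set side by side on it. A trend over gene length remained in WT replicate 1, as given below, which limits ratios and orders of genes of unlike span. Differences are K36M minus WT on the log2(FPKM + 1) scale, which understates changes of low genes. The libraries are called biological replicates in the labels, which do not say that they came from separate sowings, so the p-values measure only the spread between these libraries. FPKM sums ran from 766727 in WT replicate 1 to 2150314 in WT replicate 2, and the depth behind them is unknown. The feature AT2G01021 held 1.39% and 34.6% of the sum in WT replicates 1 and 2. It held 9.01% and 19.6% in K36M replicates 1 and 2. WT replicate 1 stood apart, with Pearson r across features of 0.821 to 0.834 to the other libraries. Leaf mesophyll markers were abundant (5 genes, summed FPKM from 48381 to 121337). Of 4 root hair markers, RHD6 and EXPA7 were at 0 in every library, and COBL9 and PRP3 were at 0.139 FPKM or less. Epidermis markers summed to 185 and 927 FPKM in WT, against 782 and 703 in K36M, and guard cell markers to 47.2 and 23.6 FPKM and to 33.7 and 25.9 FPKM. Meristem markers summed to 0.0354 and 12.5 FPKM in WT, against 15.2 and 11.8 in K36M, flower markers to 1.48 and 1.49 FPKM and to 8.57 and 15.8 FPKM, and vascular markers to 134 and 134 FPKM and to 118 and 100.4 FPKM. The part of such tissue shares in the results below was not tested.

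None of the 10 genes was called different between the genotypes. Of the 10, 8 averaged 1 FPKM or more and entered the test, and 0 of the 8 passed limma with an adjusted p under 0.05 over all 17738 features (0 of 8 also at an unadjusted p under 0.05, against 730 features). The background share of calls was 0.0395%, or 7 features. All 8 log2 fold changes were below 0, with a median of -0.91 against -0.05 over all features tested, of which 54.4% were below 0. FLS2 entered the test only through WT replicate 1, so its place among the 8 and its sign partly follow from the filter. The median over the other 7 genes was -0.97. In 6 of the 8, CERK1, LYK5, BAK1, BKK1, SOBIR1 and BIK1, each K36M value was lower than each WT value, as happened in 19.3% of all features. In 0 of the 8 did both lie above, against 12.1% of all features. WT replicate 1 was the highest library for 9 of the 10 genes, against 34.0% of all features, and BIK1 was the exception. Between the libraries numbered 1 the 10 differences ran from -3.38 for SOBIR1 to -0.19 for BIK1, all below 0, and between those numbered 2 from -0.69 for BIK1 to 0.39 for FLS2, with 1 library per group and no test. In bulk leaf RNA, fewer cells that use a gene and less of its RNA per cell cannot be told apart.

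**Figure D1:**
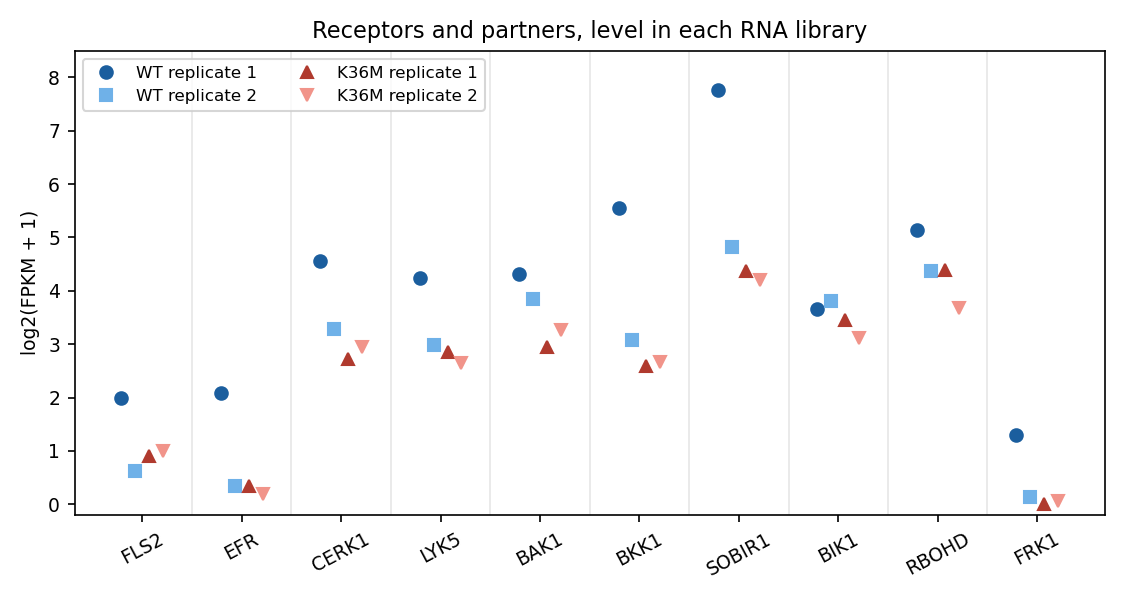
Level of each of the 10 genes as log2(FPKM + 1) in the 4 RNA libraries; each point is 1 library, blue for WT and red for K36M. WT replicate 1 is the highest point for every gene but BIK1, and WT replicate 2 lies near the K36M points for most of them.

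FLS2 (AT5G46330), the leucine-rich repeat receptor kinase for bacterial flagellin, was read at 2.97 and 0.533 FPKM in WT replicates 1 and 2 and at 0.865 and 1.01 FPKM in K36M replicates 1 and 2. The K36M values thus lay between the WT values. Its log2 fold change was -0.35 ± 0.59 (SE; limma adjusted p = 0.9999), and it was 0.33 ± 0.22, with the opposite sign, without WT replicate 1 (limma adjusted p = 0.62). FLS2 passed the filter through WT replicate 1, and the WT values differed by a factor of 5.57 where the K36M values differed by 1.16. EFR (AT5G20480), the related receptor for EF-Tu, was read at 3.27 and 0.264 FPKM in WT, against 0.267 and 0.147 in K36M. WT replicate 2 and K36M replicate 1 were nearly level, and WT replicate 1 was 12.4 times WT replicate 2. With a mean of 0.986 FPKM, EFR fell just short of the filter and was not tested, while FLS2 passed it with 1.34 FPKM.

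CERK1 (AT3G21630), the LysM receptor kinase needed for chitin signalling, was read at 22.5 and 8.78 FPKM in WT, against 5.6 and 6.76 in K36M. LYK5 (AT2G33580), a LysM protein that binds chitin and acts with CERK1, was read at 17.8 and 6.92 FPKM in WT, against 6.25 and 5.28 in K36M. Both genes were lower in each K36M library than in each WT library, and the gap between the WT libraries, a factor of 2.56 for CERK1 and 2.57 for LYK5, exceeded that between WT replicate 2 and the K36M mean, 1.42 and 1.2. The log2 fold changes were -1.08 ± 0.52 for CERK1 and -0.85 ± 0.51 for LYK5 (SE; limma adjusted p = 0.9999 for each), and -0.45 and -0.23 without WT replicate 1. The ratio of CERK1 to LYK5 FPKM was 1.26 and 1.27 in WT and 0.896 and 1.28 in K36M.

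BAK1 (AT4G33430), the co-receptor kinase shared by FLS2, EFR and the brassinosteroid receptor, was read at 19.0 and 13.3 FPKM in WT, against 6.72 and 8.65 in K36M. Of the 8 tested genes it had the lowest unadjusted p (0.053), and its log2 fold change was -0.97 ± 0.41 (SE; limma adjusted p = 0.9999). The WT libraries differed by a factor of 1.43, and WT replicate 2 was 1.73 times the K36M mean, so for BAK1 the step from WT replicate 2 to K36M exceeded the step between the WT libraries. Its log2 fold change was -0.73 ± 0.38 without WT replicate 1 (limma adjusted p = 0.59) and -1.22 ± 0.36 without WT replicate 2 (limma adjusted p = 0.15).

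BKK1 (AT2G13790), also named SERK4, is the closest functional partner of BAK1 in immunity and in the control of cell death. It was read at 45.8 and 7.46 FPKM in WT, against 4.99 and 5.35 in K36M. WT replicate 1 was 6.13 times WT replicate 2, while the K36M libraries differed by a factor of 1.07. The log2 fold change was -1.69 ± 0.80 (SE; limma adjusted p = 0.9999), and -0.46 ± 0.35 without WT replicate 1 (limma adjusted p = 0.66). The ratio of BKK1 to BAK1 FPKM was 2.4 in WT replicate 1 and 0.56, 0.742 and 0.618 in WT replicate 2 and K36M replicates 1 and 2. BKK1 was thus the more abundant of the pair in WT replicate 1 and the less abundant in the other libraries. SERK5 (AT2G13800), its close relative and neighbour in the numbering of loci, was read at 4.02 and 1.91 FPKM in WT, against 0.873 and 0.77 in K36M. How the authors' counting divided reads that both genes could have given is not known, so the values of either are uncertain to that extent.

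SOBIR1 (AT2G31880), the adaptor kinase of receptor-like proteins that have no kinase domain of their own, was read at 216 and 27.4 FPKM in WT, against 19.8 and 17.5 in K36M. It had the highest mean of the 10 genes in both groups and the greatest distance between WT libraries of the tested ones, a factor of 7.88, against 1.13 between the K36M libraries. Its log2 fold change was -2.0 ± 0.94 (SE; limma adjusted p = 0.9999), and -0.54 ± 0.38 without WT replicate 1 (limma adjusted p = 0.64). The ratio of SOBIR1 to BAK1 FPKM was 11.3 in WT replicate 1 and 2.06, 2.94 and 2.02 in WT replicate 2 and K36M replicates 1 and 2.

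Without WT replicate 2, where the remaining WT library is assumed to vary like the K36M libraries, BKK1 and SOBIR1 were called lower (-2.92 ± 0.34 and -3.47 ± 0.39, SE; limma adjusted p = 0.033 and 0.030). In that fit 3.96% of all features, 702 in number, were called, and the other 6 tested genes were not.

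**Figure D2:**
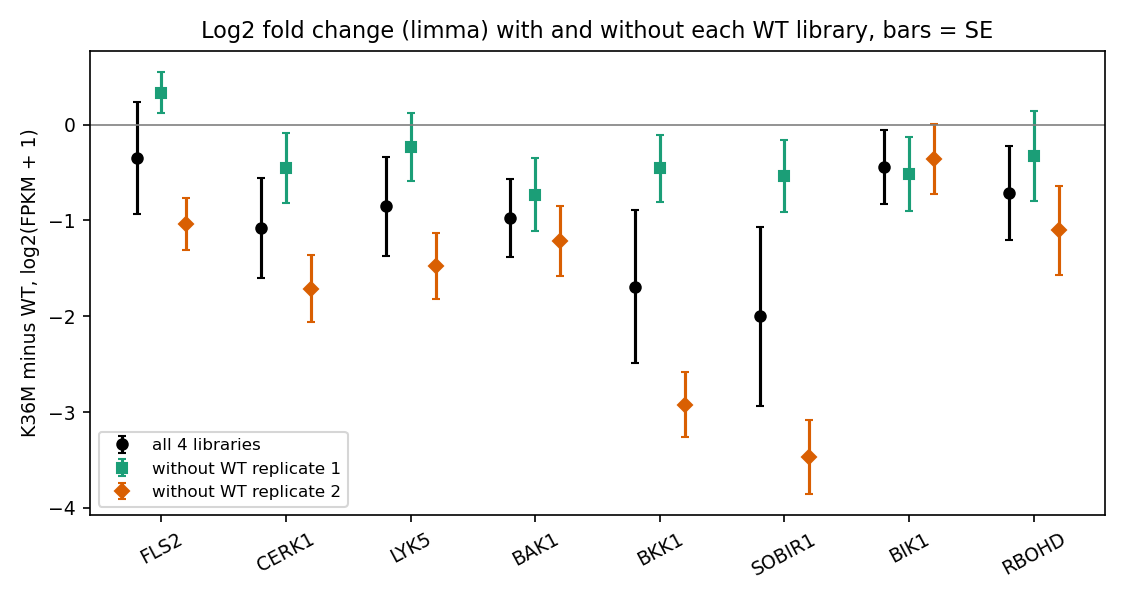
Log2 fold change, K36M minus WT, of the 8 tested genes from limma with all 4 libraries (black), without WT replicate 1 (green) and without WT replicate 2 (orange); bars are the SE. For SOBIR1 the estimate moves from -0.54 to -3.47 between the last pair of fits, for BIK1 from -0.51 to -0.36, and for FLS2 it changes sign.

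BIK1 (AT2G39660), the cytoplasmic kinase that receptor complexes phosphorylate and that in turn phosphorylates RBOHD, was read at 11.6 and 12.9 FPKM in WT, against 10.02 and 7.65 in K36M. It was the only gene of the 10 for which WT replicate 1 was not the highest library. Both K36M values were below both WT values, by little: the log2 fold change was -0.44 ± 0.39 (SE; limma adjusted p = 0.9999) and ran from -0.61 to -0.26 when a library was left out. RBOHD (AT5G47910), the NADPH oxidase of the oxidant burst, was read at 34.3 and 19.6 FPKM in WT, against 20.1 and 11.8 in K36M. K36M replicate 1 exceeded WT replicate 2, so the groups overlapped. Its log2 fold change was -0.72 ± 0.49 (SE; limma adjusted p = 0.9999), and the K36M libraries, apart by a factor of 1.7, were as spread as the WT libraries, apart by 1.75. RBOHF, a related leaf oxidase named after its values were seen, was read at 8.66 and 1.13 FPKM in WT, against 3.64 and 2.72 in K36M.

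FRK1 (AT2G19190), a receptor-like kinase gene whose transcript is induced within the flagellin response and is widely used as its reporter, was the lowest of the 10. It was read at 1.46 and 0.0941 FPKM in WT, was listed at 0 in K36M replicate 1 and stood at 0.0458 FPKM in K36M replicate 2. WT replicate 1 was 15.5 times WT replicate 2. With a mean of 0.4 FPKM it was not tested, and a value of 0 in this table is not a measure of absence. EFR and FRK1, the pair left untested, and FLS2 share low levels in the other 3 libraries and a value above 1 FPKM in WT replicate 1.

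By mean FPKM the order in WT was SOBIR1, RBOHD, BKK1, BAK1, CERK1, LYK5, BIK1, EFR, FLS2 and FRK1. Neighbours in this order had overlapping ranges except at the step from BIK1 (12.3 ± 0.982 FPKM; SD, n = 2) to EFR (1.76 ± 2.12 FPKM). In K36M the order was SOBIR1, RBOHD, BIK1, BAK1, CERK1, LYK5, BKK1, FLS2, EFR and FRK1, from 18.6 ± 1.6 FPKM for SOBIR1 to 0.935 ± 0.0994 FPKM for FLS2 and 0.207 ± 0.0851 FPKM for EFR (SD, n = 2). There the ranges parted between RBOHD and BIK1, between BKK1 (5.17 ± 0.254 FPKM) and FLS2, and at each step below FLS2. The flagellin and EF-Tu receptors were thus far below their co-receptor in every library: the ratio of BAK1 to FLS2 FPKM was 6.41 and 24.99 in WT and 7.77 and 8.6 in K36M, and that of BAK1 to EFR was 5.83 and 50.5 in WT and 25.2 and 59.0 in K36M. The ratio of FLS2 to EFR was 0.909 and 2.02 in WT and 3.24 and 6.86 in K36M, with EFR the more abundant in WT replicate 1 alone.

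The excess in WT replicate 1 was set beside gene length, since long genes as a class were higher in that library. Over 3031 features spanning 2000 to 2500 bp, the median of WT replicate 1 minus the mean of the other 3 libraries was -0.09 on the log2 scale, and over 1264 features of 4000 to 5000 bp it was 0.37. The 10 genes span 2108 to 5242 bp. Against features within 20% of its own span, SOBIR1 had an excess of 3.29 beside a median of -0.14, BKK1 2.77 beside 0.49, EFR 1.80 beside 0.36 and CERK1 1.57 beside 0.16. LYK5 had 1.40 beside 0.03, FRK1 1.23 beside 0.27, FLS2 1.15 beside 0.35, RBOHD 1.00 beside 0.46, BAK1 0.97 beside 0.39 and BIK1 0.19 beside -0.05. All 10 were thus above the median of features of like span. With each library's trend over gene span removed, the 8 log2 fold changes remained below 0 with a median of -0.74, FLS2 stood at -0.11 and RBOHD at -0.42, and LYK5 no longer had separate groups.

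**Figure D3:**
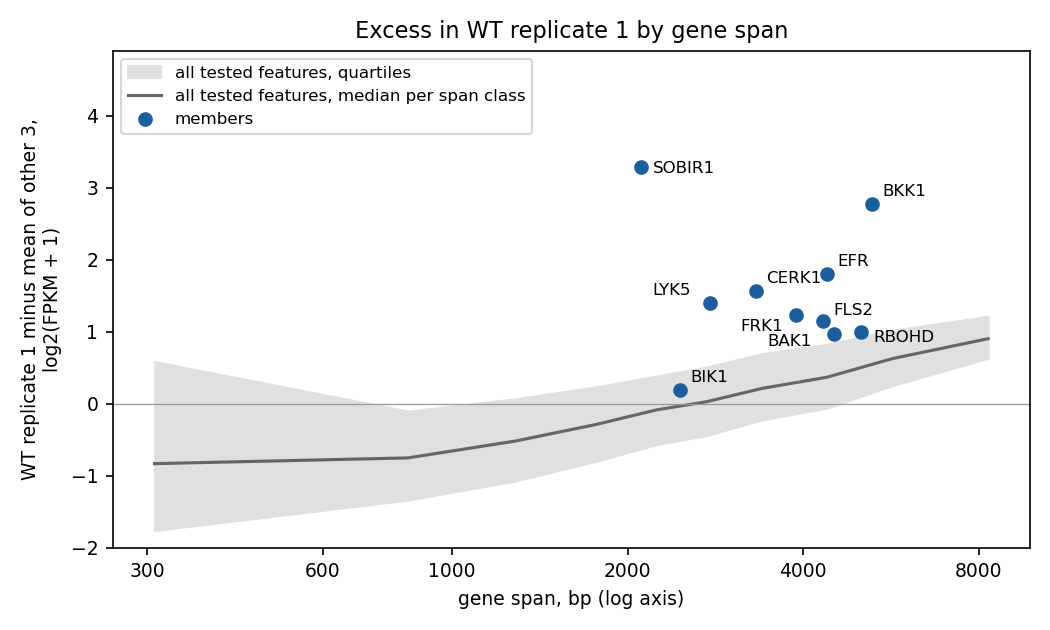
WT replicate 1 minus the mean of the other 3 libraries, on the log2(FPKM + 1) scale, against gene span in bp (log axis); blue points are the 10 genes, the line is the median of all tested features per span class and the band runs from their lower to their upper quartile. The line rises with span, and SOBIR1 at 3.29 and BKK1 at 2.77 lie farthest above it.

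The separation of the groups depended on scaling. When the libraries were scaled to equal sums without the abundant feature AT2G01021, BAK1 alone of the 8 kept both K36M values below both WT values, against 9.06% of all features below and 17.4% above. The median log2 fold change was then -0.84. After median of ratios scaling, 5 of the 8 had both K36M values below both WT values, against 15.4% of all features. After quantile normalization 5 of the 8 did, against 18.2%. With WT replicate 2 as the only WT library, both K36M values were below it for 6 of the 8 genes (44.8% of features), and above it for FLS2 (30.0% of features). WT replicate 2 was 1.2 to 1.73 times the K36M mean for the 7 tested genes other than FLS2, and 0.57 times for FLS2.

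The salicylic acid outputs PR1, PR2 and PR5, widely used as reports of immune state, were at 314, 561 and 403 FPKM in WT replicate 1 and at 82.4, 132 and 113 FPKM in WT replicate 2. They were at 0.195, 4 and 9.03 FPKM in K36M replicate 1 and at 2.88, 7.76 and 12.4 FPKM in K36M replicate 2. All 3 were lower in each K36M library than in WT replicate 2. With all libraries their log2 fold changes were -6.23, -5.37 and -4.21, and none was called (limma adjusted p from 0.31 to 0.61). Without WT replicate 1 the log2 fold changes were -5.28, -4.33 and -3.29, and for that fit only these sizes are given. Their part in the values of the receptor genes was not tested.

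Another 74 genes of the pathway were looked up by role; 73 had a feature of their own and 66 were tested. None was called (limma, lowest adjusted p = 0.9999; 11 of 66 at an unadjusted p under 0.05, against 730 of 17738 features). The K36M values were under the lower WT value in 33 (19.3% of all features) and over the higher one in 3 (12.1%). The median log2 fold change was -0.67, or -0.32 without WT replicate 1, against -0.05 and -0.12 over all features. WT replicate 1 was the highest library for 45 of the 66 (34.0% of all features). With equal sums, 19 rather than 33 had K36M values below both WT values, where 9.06% of all features did. LYK4, IOS1, WRKY29, WRKY30, NHL10 and FOX1 averaged under 1 FPKM in the other 3 libraries and so entered the test only through WT replicate 1. All 6 are among the 33 and among the 45, and LYK4 and NHL10 are among the 11, so these counts partly follow from the filter. The median over the other 60 genes was -0.58. The shares and medians over all features just given are the background for the counts and medians by role below.

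Other receptors and receptor-like proteins had a median log2 fold change of -1.49 over 13 tested, the lowest of the 6 role groups, with 10 below both WT libraries and 0 above. Without WT replicate 1 the median was -0.60, and with equal sums 6 rather than 10 were below. LYK4, among the 10, entered the test only through WT replicate 1. Over the other 12 genes the median was -1.55, with 9 below. RLP23, the receptor-like protein for a peptide of microbial NLP toxins that signals through SOBIR1, was at 76.1 and 6.89 FPKM in WT, against 1.18 and 1.56 in K36M. WAK1, a wall-associated kinase that binds pectin, was at 232 and 24.6 FPKM in WT, against 5.88 and 7.58 in K36M. Their log2 fold changes were -3.39 ± 1.01 and -3.33 ± 1.00 (SE; limma adjusted p = 0.9999), and -1.74 and -1.73 without WT replicate 1. WAK2, a related kinase, was at 66.8 and 7.57 FPKM in WT, against 4.05 and 5.3 in K36M. For SOBIR1, too, WT replicate 2 was above both K36M libraries, at 1.47 times their mean. RLP23 and WAK1, named for the size of their log2 fold changes, thus differed from it in degree, with WT replicate 2 farther above K36M.

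Among co-receptors and their regulators the median was -0.68 over 7 tested, with 3 below both WT libraries and 0 above. The median was -0.15 without WT replicate 1, and 2 were below with equal sums. IOS1, among the 3, entered the test only through WT replicate 1. Over the other 6 genes the median was -0.57, with 2 below. BIR1, a kinase that holds BAK1 in check and whose loss releases SOBIR1-dependent cell death, was at 68.4 FPKM in WT replicate 1 and at 8.88, 8.5 and 8.46 FPKM in WT replicate 2 and K36M replicates 1 and 2. IOS1, a kinase that associates with receptor complexes, was at 5.98 FPKM in WT replicate 1 and at 0.264, 0.113 and 0.171 FPKM in the same order. BIR1 was therefore level in 3 libraries and high in the fourth.

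Cytoplasmic kinases and ubiquitin ligases had a median of -0.41 over 13 tested, with 4 below and 2 above. The median was -0.19 without WT replicate 1, and 2 were below with equal sums. PCRK1, a relative of BIK1, was at 22.6 and 5.09 FPKM in WT, against 3.47 and 3.48 in K36M. The ubiquitin ligases of the PUB22 group, which dampen the response, did not share a direction. PUB24 was at 14.2 and 2.44 FPKM in WT, against 1.85 and 1.15 in K36M, whereas PUB23 was at 1.72 and 4.73 FPKM in WT, against 7.18 and 8.72 in K36M. PUB22 was at 0.752 and 1.39 FPKM in WT, against 4.12 and 2.46 in K36M. PUB22, and WRKY22 below, were singled out after their values were seen, as they and PUB23 are the 3 genes with K36M values above both WT values.

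Genes of calcium, oxidant and G protein signalling had a median of -0.38 over 9 tested, with 2 below and 0 above, and of -0.12 without WT replicate 1. XLG2, a large G protein alpha subunit that acts with FLS2 and BIK1, was at 23.1 and 4.66 FPKM in WT, against 3.5 and 3.84 in K36M. AGB1, the G protein beta subunit, was at 32.0 and 46.8 FPKM in WT, against 22.3 and 26.5 in K36M, with WT replicate 2 the highest. MAP kinase genes had a median of -0.78 over 11 tested, with all 11 log2 fold changes below 0, 8 below both WT libraries and 0 above (54.4% of all features had log2 fold changes below 0). The median was -0.47 without WT replicate 1, and 3 rather than 8 were below with equal sums. MAPKKK5, which links cytoplasmic kinases to the MAP kinase cascade in chitin signalling, was at 23.4 and 12.8 FPKM in WT, against 3.68 and 3.33 in K36M. Its log2 fold change was -2.03 ± 0.44 (SE; limma unadjusted p = 0.0033, adjusted p = 0.9999) and -1.62 without WT replicate 1. MPK11 was at 30.8 and 2.72 FPKM in WT, against 0.79 and 0.512 in K36M. MKK1 was at 45.4 and 7.83 FPKM in WT, against 4.99 and 4.34 in K36M.

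Output genes of the response had a median of -0.71 over 13 tested, with 6 below and 1 above. Of the 6, 4 (WRKY29, WRKY30, NHL10 and FOX1) entered the test only through WT replicate 1, and the median over the other 9 genes was -0.18. Over all 13 it was -0.24 without WT replicate 1, and with equal sums 4 rather than 6 were below. NHL10, a flagellin-induced gene, was at 3.57 and 0.863 FPKM in WT and listed at 0 in both K36M libraries. FOX1, an oxidase of defence metabolism, was at 5.85 and 0.37 FPKM in WT, against 0.0739 and 0.072 in K36M, and WRKY30 was at 13.4 and 0.866 FPKM in WT, against 0.264 and 0.527 in K36M. These 3 had WT replicate 1 as the highest library, which their entry through that library alone largely fixed in advance. WRKY22, a transcription factor placed downstream of FLS2, was at 2.84 and 11.8 FPKM in WT, against 13.7 and 13.2 in K36M, with WT replicate 1 the lowest. PHI-1, also singled out after its values were seen, was at 2.89 and 195 FPKM in WT, against 160 and 520 in K36M, so the groups overlapped, and its log2 fold change was 3.39 ± 1.75 (SE) with all libraries and 0.56 without WT replicate 1.

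**Figure D4:**
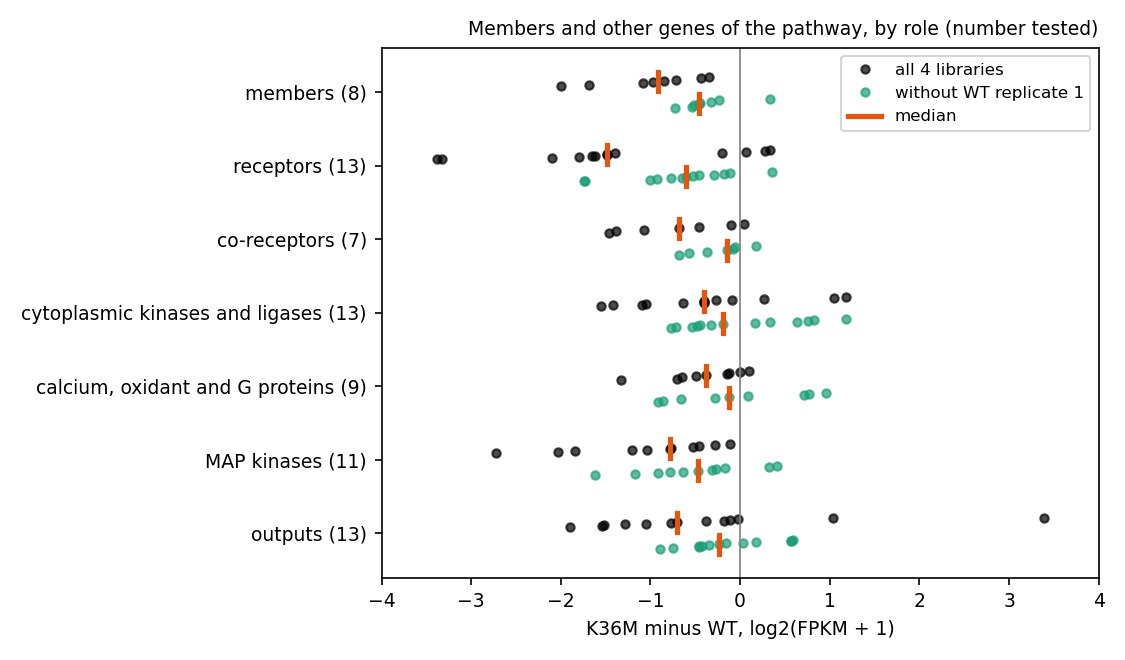
Log2 fold change, K36M minus WT, of the 8 tested genes of the main set (members) and of 66 other tested genes of the pathway by role, with all 4 libraries (black) and without WT replicate 1 (green); each point is 1 gene and the orange bar is the median. Every group's median lies below 0 in both fits and nearer to 0 without WT replicate 1, for the members at -0.45 against -0.91. The median over all features was -0.05 with all 4 libraries and -0.12 without WT replicate 1, the same as for calcium, oxidant and G proteins in that fit.

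Likeness of pattern was measured as the Euclidean distance between log2(FPKM + 1) profiles, each centred on its own mean, over the 4 libraries and 12104 features averaging 5 FPKM or more. Nearest to FLS2 were AT3G47250 (distance 0.017; 94.97 and 36.04 FPKM in WT, 44.7 and 47.4 FPKM in K36M), ARC3 (AT1G75010, 0.044), a plastid division gene, and AT5G45550 (0.046). Nearest to FRK1 were AT1G12470 (0.08; 10.8 and 3.91 FPKM in WT, 3.69 and 3.73 FPKM in K36M), AT1G59710 (0.089) and AT5G53420 (0.091). FRK1 was at 0.0941 FPKM or less in 3 libraries, so its profile on this scale is set largely by the added 1: its WT libraries differed by a factor of 15.5, far more than those of its neighbours, and the small distances do not show a like pattern of folds. The same holds in part for FLS2, whose WT libraries differed by a factor of 5.57. With 4 libraries, of which 1 stands apart, such likeness describes mainly the height of WT replicate 1 over the rest.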

How the data were processed

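The authors deposited FPKM as a single table without a header; the unit is taken from the table's name as quoted in the labels. Per the labels' protocols, RNA libraries came from a strand-specific mRNA kit. TAIR10, Bowtie2 and bedtools appear, with no role, in the submitters' processing notes; which program gave the FPKM, and how it treated strand, is not given in the sources used here, so reads of overlapping genes may be shared. Libraries were mapped to groups by the names in the labels. Of 33302 features, 233 join several genes. Gene spans and names came from RefSeq's TAIR10.1 table, which held all 10 members; its coordinates and any sequences were not used.

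Features averaging 1 FPKM or more were compared as log2(FPKM + 1) with limma 3.58.1 in R 4.3.3 (mean-variance trend, two-sided), with Benjamini-Hochberg adjustment over all 17738 and a threshold of 0.05. FPKM are not counts, so no count model was run. The fit was first tested on simulated data in which no library stood apart, so that test does not cover a library such as WT replicate 1. Tables and figures used Python 3.11.15, pandas 2.3.3 and matplotlib 3.10.9.

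For 2664 genes under 1 FPKM in both replicate 2 libraries, 86.6% of ratios between these libraries were a constant times a ratio of integers of at most 12 (tolerance 0.0005 in natural log), against 2.03% to 3.1% for other pairs. The replicate 1 pair was among these others, at 2.79%. Values by replicate number are also given, though this check set apart the replicate 2 pair only.

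The members and lists were chosen with earlier results of these data known. Named from each list were up to 3 tested genes with groups that did not overlap and the greatest log2 fold change in size, with SERK5 and PR1, PR2 and PR5 besides. RBOHF, PUB22, WRKY22, PHI-1, LYK4 and WRKY29 were named outside this rule, after their values were seen.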

Additional observations from a re-analysis of the deposited data

How the results depend on the processing

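Over 16 alternatives with a test (other pseudocounts, filters, scalings and limma settings, the replicate block, removal of the gene span trend, each library left out), 124 of 127 values of the 8 tested members kept their direction and stayed uncalled. BKK1 and SOBIR1 were called without WT replicate 2, and FLS2, at -1.04 to 0.33 with a library left out, changed sign without WT replicate 1 (0.33) and between replicate 2 libraries alone (0.39). The members' median log2 fold change ran from -1.35 to -0.45 when a library was left out (-0.15 to 0.04 over all features). It stood at -1.37 within replicate number 1 and -0.49 within replicate number 2. Members with both K36M values below both WT values numbered 1 with equal sums without AT2G01021 (9.06% of all features). They numbered 5 to 7 in the other settings with all 4 libraries (15.4% to 19.3% of all features), the 7 being of all 10 genes with no filter. When a library was left out, 6 to 8 lay below WT (26.8% to 44.8% of all features) and 0 to 1 above (17.9% to 39.4%).

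Features called numbered 7, and 0 with no filter (limma, 1175 at an unadjusted p under 0.05). They numbered 0 with the replicate block (794 at an unadjusted p under 0.05), 36 with the block and the gene span trend removed together, and 0 to 702 with a library left out. The block called no member. Same-numbered libraries deviated together by a Pearson r of 0.128 across features, and the labels do not say that a number marks a shared batch. The members' SE ran from 0.385 to 0.936 on the log2 scale with 2 libraries per group, and the depth is unknown. The causes of these movements were not tested.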
